A study of Mus musculus with 2 samples.

Results

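Areg, Ereg, Hbegf, Tgfa and Btc encode ligands of the epidermal growth factor (EGF) receptor, Egfr encodes the receptor, and Errfi1 encodes an inhibitor of it. These 7 genes were taken by their symbols from all probes of both arrays other than control probes. They were read by 9 probes, of 35777 probes with a gene symbol, and are 7 of the 28311 genes on the array. All 7 genes had signals well above background, as the scanner software calls it, in more than 50% of the spots kept in each of the 4 channels.

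The cells were immortalized mouse embryonic fibroblasts (MEFs), of a genetic background labelled C57BL/6 x B6:129 Ola. Both conditions, by their titles, carried floxed THOC5 on both alleles (flox/flox) and the tamoxifen-activated Cre at the Rosa26 locus (Rosa26ERT2 Cre). The genotype label reads wildtype for control cells and THOC5 knockdown for THOC5-depleted cells. THOC5 is a subunit of the THO complex, which takes part in mRNA processing and export. Control cells received no tamoxifen (0 days), and THOC5-depleted cells were treated with it for 2 days. Both were starved of serum, and RNA was taken before serum (unstimulated, labelled with Cy3) and 1 h after fetal calf serum (stimulated, labelled with Cy5). Each condition was 1 array with both dyes, with no array of exchanged dyes used here. Loss of THOC5, tamoxifen and Cre activity, the culture and the array cannot be told apart. Serum and dye cannot be told apart either, since every serum ratio is Cy5 over Cy3. No test between conditions was made, and errors given below cover only the scan of an array.

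The ligands are made as membrane-anchored precursors, are shed by metalloproteases and bind the receptor tyrosine kinase EGFR. Active EGFR signals through adaptors and the RAS and MAP kinase cascade. Errfi1 (also called Mig6) is transcribed in response to this signalling, binds the kinase domain of EGFR and inhibits it, closing a feedback loop. Several of the ligand genes are themselves known immediate early genes (IEGs), which are transcribed after growth factors without new protein synthesis.

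Promoter windows were read from RefSeq (GRCm38.p6, from 250 bases before to 50 bases after a start site) for the 5 genes with a window used here, Areg, Btc, Tgfa, Egfr and Errfi1. They had 6 windows, since Errfi1 has 2. Each was searched on both strands for the cAMP response element TGACGTCA, its shorter form TGACG (which lies within it), the AP-1 site TGANTCA, the CArG box and the TATA box TATAAA. The windows of Areg and the second start of Errfi1, were the 2 of the 6 with a cAMP response element, and each also held a TATA box, which is why they are given here. The 150 bases before each start are given 5′ to 3′ on the plus strand, with the cAMP response element and the TATA box in capitals. The stretch of Areg lies at chr5:91139449-91139598 and that of the second start of Errfi1 at chr4:150854920-150855069.
Areg: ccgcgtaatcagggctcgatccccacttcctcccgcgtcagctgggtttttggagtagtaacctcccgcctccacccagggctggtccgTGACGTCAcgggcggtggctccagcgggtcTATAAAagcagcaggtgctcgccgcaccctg
Errfi1: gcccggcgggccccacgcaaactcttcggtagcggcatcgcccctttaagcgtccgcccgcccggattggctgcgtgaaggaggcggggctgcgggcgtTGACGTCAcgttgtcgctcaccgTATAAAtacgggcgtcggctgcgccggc
The cAMP response element began 61 bases before the start in Areg and 51 bases before it in Errfi1. The TATA box began 31 bases before the start in Areg and 28 bases before it in Errfi1. Of 32851 windows of this length in the table, 1.79% held the cAMP response element, 13.6% the TATA box and 0.17% both. The shorter form TGACG was found in 20.8% of all windows. Besides the copies inside the longer element, it was found at 1 more place in Areg, and at 1 place in Btc. No letters of the AP-1 site (7.81% of all windows) or the CArG box (1.63%) were found in the 6 windows. These matches describe the sequence and were not set against binding data. Ereg and Hbegf had no window used here, so their promoters were not searched.

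The signals of Areg, Ereg, Hbegf and Errfi1 were higher after serum on both arrays, by 8.24-fold to 17.3-fold in control cells and by 2.90-fold to 4.61-fold in THOC5-depleted cells. Egfr, Tgfa and Btc had serum ratios near 1 on both. The processed signals below are intensities in arbitrary units after the dyes were normalized within an array. They were not scaled between arrays, and signals of different probes are not comparable. The THOC5-depleted array was the dimmer one, with 75th percentiles of 862 (Cy3) and 867 (Cy5) against 1063 and 1052 on the control array.

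Areg (amphiregulin) was read by 1 probe on chromosome 5 of mm9, from 91570090 to 91570149. Its signal was 204 in unstimulated and 1748 in stimulated control cells, and 282 in unstimulated and 854 in stimulated THOC5-depleted cells. Control cells thus had a serum ratio (Cy5 over Cy3) of 8.55, and THOC5-depleted cells one of 3.03. On the log2 scale these ratios were 3.095 ± 0.35 and 1.60 ± 0.25, where the errors are the scanner software's own estimates for the spot. The signal before serum was the higher one in THOC5-depleted cells, and the signal after serum was the lower one.

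Ereg encodes epiregulin, which binds EGFR and ERBB4. Its probe lies on the same chromosome, from 91522553 to 91522612 of mm9. The signals were 1896 before and 20599.6 after serum in control cells, against 1809 before and 8329 after serum in THOC5-depleted cells. Serum ratios of 10.9 (control) and 4.61 (THOC5-depleted) followed, or 3.44 ± 0.38 and 2.20 ± 0.29 on the log2 scale. Before scaling between the arrays, the unstimulated signals of the 2 arrays were thus close, while the stimulated signal was lower in THOC5-depleted cells. Ereg was the one gene of the 7 whose ratio in THOC5-depleted cells was still above 4 after rounding to a decimal place, with Errfi1 just under this limit at 3.9999. This count depended on the scaling, as it was 0 with the spike-in probes levelled (Ereg 3.88) and 4 with the spread of log ratios scaled (Ereg 8.83, Errfi1 7.22, Areg 4.86, Hbegf 4.56) or without dye normalization.

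Hbegf encodes heparin-binding EGF-like growth factor and was read on chromosome 18 of mm9 (36664738 to 36664797). Control cells gave a signal of 5118 before and 42179 after serum. THOC5-depleted cells gave 4678 before and 13566 after serum. The ratios of 8.24 and 2.90 (log2 3.04 ± 0.35 and 1.54 ± 0.25) were close to those of Areg on both arrays.

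Tgfa and Btc, the ligands transforming growth factor alpha and betacellulin, gave dim signals. The Tgfa probe (chromosome 6 of mm9, 86224838 to 86224897) was printed as 10 spots. On the control array its mean signal was 26.6 in Cy3 (spots from 23.3 to 32.9) and 25.5 in Cy5 (17.1 to 32.6). On the THOC5-depleted array, where 2 of the 10 spots were outliers and were left out, it was 17.7 in Cy3 (12.6 to 23.5) and 18.3 in Cy5 (13.7 to 24.9). The spots of Cy3 and Cy5 overlapped on each array. The serum ratio read 0.96 for control and 1.03 for THOC5-depleted cells. Between spots, the log2 ratio varied with an SD of 0.23 (n = 10 spots) and 0.27 (n = 8 spots). Only 6 of the 8 spots in Cy3 and 7 in Cy5 were well above background in THOC5-depleted cells.

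Btc was read by 1 spot (chromosome 5 of mm9, 91786948 to 91787007). Its signals were 28.7 before and 24.5 after serum in control cells, and 25.9 before and 31.2 after serum in THOC5-depleted cells. Its log2 serum ratio read -0.23 ± 0.28 for control and 0.27 ± 0.26 for THOC5-depleted cells, so that the sign differed but each value lay close to its own error. At these signals a small change of Tgfa or Btc would not be separable from the error.

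Egfr itself was read by 3 probes on chromosome 11 of mm9. The brightest (16813815 to 16813874) was printed as 10 spots and gave mean signals of 1107 before and 1144 after serum in control cells. In THOC5-depleted cells the signals were 1056 before and 1088 after serum. On each array the spots of Cy3 and Cy5 overlapped (1054 to 1167 and 1106 to 1183 in control cells, 994 to 1103 and 1017 to 1126 with THOC5 depleted). The serum ratio was 1.03 on both arrays, and over the 10 spots the SD of its log2 was 0.024 (control) and 0.043 (THOC5-depleted). The other 2 probes, designed on another transcript of Egfr, lie 26.6 and 30.3 kb upstream and were dim. The first (16787172 to 16787231) had signals of 74.0 and 66.8 in control cells and 68.9 and 62.8 in THOC5-depleted cells. For the second (16783556 to 16783615) the signals were 61.7 and 56.7 in control cells and 60.2 and 47.2 in THOC5-depleted cells. Their serum ratios ran from 0.79 to 0.92, so no probe of the receptor read a 2-fold change.

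Errfi1 had the highest serum ratio of the 7 genes in control cells. Its probe lies on chromosome 4 of mm9, from 150242886 to 150242945. The signal was 6813 before serum and 117573 after it in control cells, against 10914 and 43653 in THOC5-depleted cells. The log2 serum ratios were 4.11 ± 0.44 and 2.00 ± 0.27. As with Areg, the signal before serum was higher and the signal after serum lower in THOC5-depleted cells. No spot on either array was saturated, so that the highest of these signals was within the range of the scanner.

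**Figure D1:**
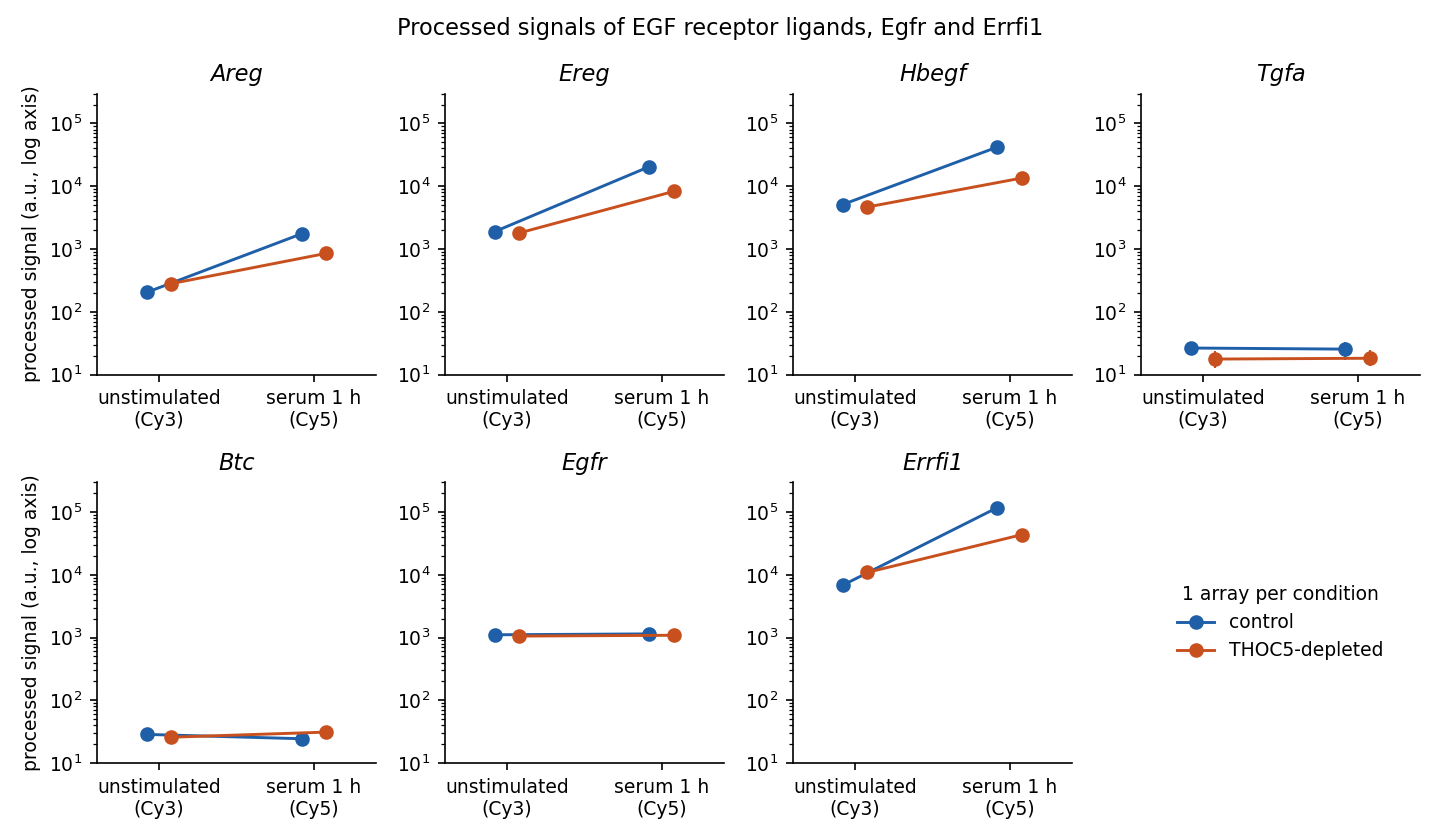
Processed signal (arbitrary units, log axis) of each gene before serum (Cy3) and 1 h after serum (Cy5) on the control array and the THOC5-depleted array. Vertical lines for Tgfa and Egfr span the lowest to highest of their spots; the lines of Areg, Ereg, Hbegf and Errfi1 rise on both arrays and less steeply in THOC5-depleted cells, while those of Tgfa, Btc and Egfr stay level.

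A 2-fold or higher serum ratio in control cells was found for 4 of the 7 genes, against 2.36% of the 17786 genes measured on that array. The 4 were 3 ligands and the inhibitor. None of the 7 was 2-fold or more lower after serum, against 1.53% of all genes. The same 4 genes also passed the signal limits used in the study, a Cy5 signal above 200 and a ratio that rounds, at a decimal place, to above 4, which 0.523% of all measured genes (93 genes) passed. The study's further limit on annotation was not applied here, and a gene symbol was required. Ranked by the control ratio among these 93 genes, Errfi1 was at place 11, Ereg 24, Areg 36 and Hbegf 37. In THOC5-depleted cells a ratio of 2 or more was again found for these 4 genes, against 0.863% of 17849 genes measured, and a ratio above 4 for 1 gene, Ereg, against 0.157%. The order of the log2 ratios in THOC5-depleted cells was Ereg, Errfi1, Areg and Hbegf, with steps of Ereg over Errfi1 and of Areg over Hbegf below the scanner's errors.

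The serum ratio of Errfi1 was 4.31-fold lower in THOC5-depleted than in control cells (log2 difference 2.11 ± 0.52). That of Hbegf was lower by 2.84-fold (1.51 ± 0.43), that of Areg by 2.82-fold (1.496 ± 0.43) and that of Ereg by 2.36-fold (1.24 ± 0.48). All of these fold reductions were 2.59 to 4.09 times the scanner's error. They are 4 of the 7 genes, against 1.16% of the 17231 genes measured on both arrays. At the lower limit of the study, 1.3-fold, the count was the same, against 8.35% of all genes and 90.3% of the 93 genes above 4 in control cells. Among these 93 genes, 73.1% had a fold reduction of 2 or more, and the median fold reduction was 2.65 against 2.83 for the 4 genes. The 93 genes, and the 4 among them, were selected for a high ratio on the control array, which enters the fold reduction and favours a high one, so these values are a description. With the spread of log ratios scaled as below, 41.9% of the 93 genes had a fold reduction of 2 or more and the median was 1.75. Ranked among the 93 genes, Errfi1 was at place 16 for the fold reduction, Hbegf 38, Areg 40 and Ereg 57. Between the 4 genes the fold reductions differed by at most 0.87 on the log2 scale, between Errfi1 and Ereg, with an error of 0.70. For the other genes the log2 fold reduction was 0.00 ± 0.29 for Egfr, -0.10 ± 0.47 for Tgfa and -0.50 ± 0.39 for Btc. A negative value means a higher ratio in THOC5-depleted cells.

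**Figure D2:**
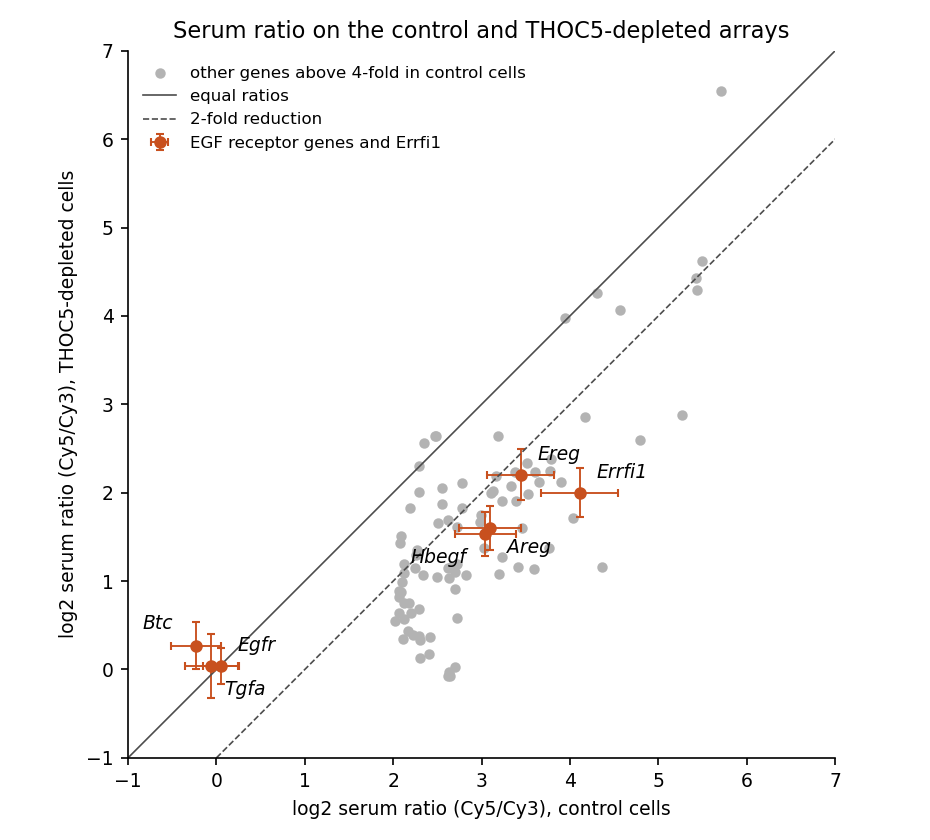
Log2 serum ratio in control cells against that in THOC5-depleted cells for the 7 genes (orange, with the scanner's error) and the other genes above 4 in control cells (grey). The solid line marks equal ratios and the dashed line a 2-fold reduction; Areg, Ereg, Hbegf and Errfi1 lie below the dashed line among the grey points, and Egfr, Tgfa and Btc lie near zero.

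The spread of log2 ratios over all genes was narrower on the THOC5-depleted array. When its log2 ratios were multiplied by 1.43 to give both arrays the same spread, Errfi1 alone still had a fold reduction of 2 or more (2.39). Hbegf then had 1.81, Areg 1.76 and Ereg 1.23. The RNAs spiked into both dyes read a log2 ratio higher by 0.25 on the THOC5-depleted array, and levelling them raised the fold reductions of the 4 genes to 2.80 for Ereg, 3.35 for Areg, 3.37 for Hbegf and 5.12 for Errfi1.

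**Figure D3:**
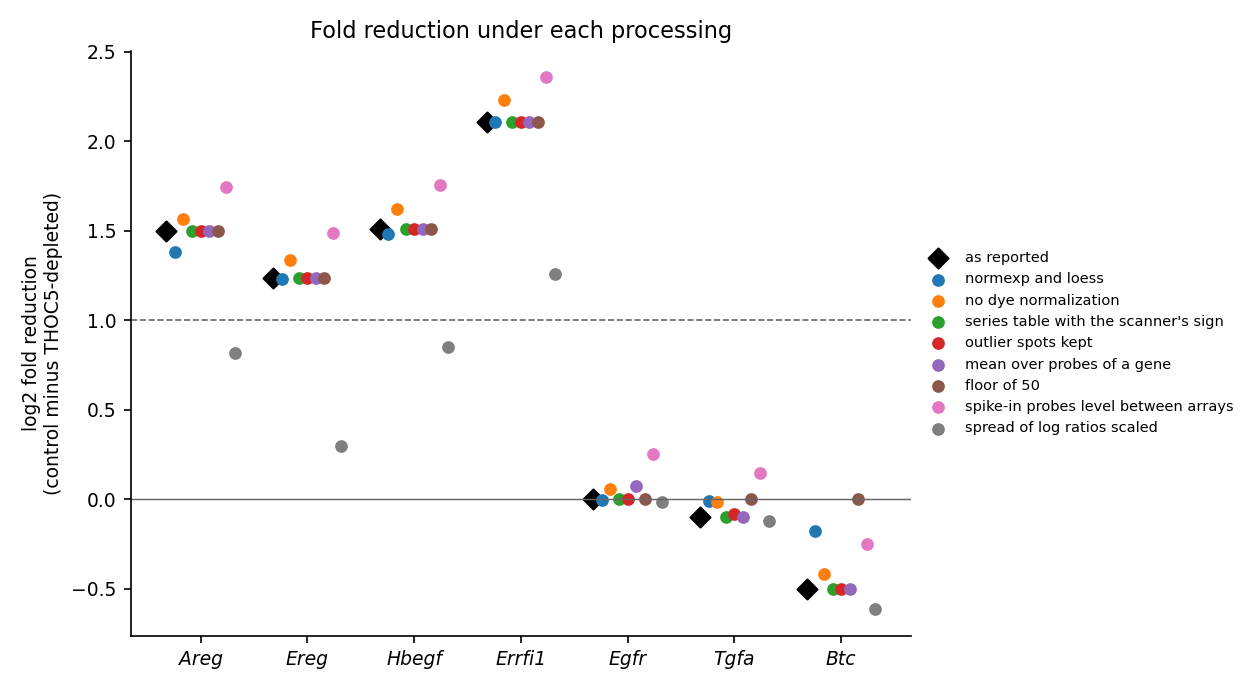
Log2 fold reduction (control minus THOC5-depleted serum ratio) of each gene as reported (black diamonds) and under 8 other ways of processing (coloured points). The dashed line marks a 2-fold reduction; Errfi1 stays above it throughout, and Areg, Ereg and Hbegf fall below it only where the spread of the log ratios was scaled.

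A lower serum ratio can come with a higher level before serum, a lower level after it, or both. To compare levels, the arrays were scaled to one distribution of mean signals (limma, Aquantile), which leaves each ratio within an array as it was. Before serum, Errfi1 was 1.94-fold higher in THOC5-depleted than in control cells (log2 0.96), and Areg was 1.67-fold higher (0.74). None of the 7 genes was 2-fold or more higher, against 1.39% of 17748 genes. At a lower limit of 1.5-fold it was 2 of the 7, against 4.99% of all genes and 25.8% of the 93 genes above 4. Ereg and Hbegf read 1.19-fold and 1.14-fold higher. After serum, Hbegf was 2.50-fold lower in THOC5-depleted cells, Errfi1 2.22-fold, Ereg 1.98-fold and Areg 1.69-fold. Of the 7 genes, 2 were thus lower by 2-fold or more after serum, against 1.68% of 17471 genes and 53.8% of the 93. With each channel scaled to its 75th percentile, Ereg also passed (log2 -1.03), which made 3 genes.

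The log2 fold reduction is the THOC5-depleted minus control difference before serum, less that after serum. The difference before serum made up 49.4% of it for Areg and 45.3% for Errfi1, against 20.6% for Ereg and 12.3% for Hbegf. All 4 genes read higher before and lower after serum in THOC5-depleted cells, as did 63.4% of the 93 genes, a pattern that selection for a high control ratio favours. For Ereg and Hbegf the direction before serum rests on the scaling, since the signals before scaling were lower in THOC5-depleted cells, at 0.95 and 0.91 of those in control cells. Their scaled log2 differences before serum, 0.25 and 0.19, were also smaller than the scanner's error of their serum ratio on either array. The median difference before serum was 0.50 over the 4 genes and 0.19 over the 93 genes. After serum the medians were -1.07 and -1.06. For Egfr the log2 difference was 0.22 both before and after serum. Btc read 0.00 before and 0.50 after serum, and Tgfa -0.43 and -0.33, at signals where the spots of Tgfa spanned a wider range than these differences.

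**Figure D4:**
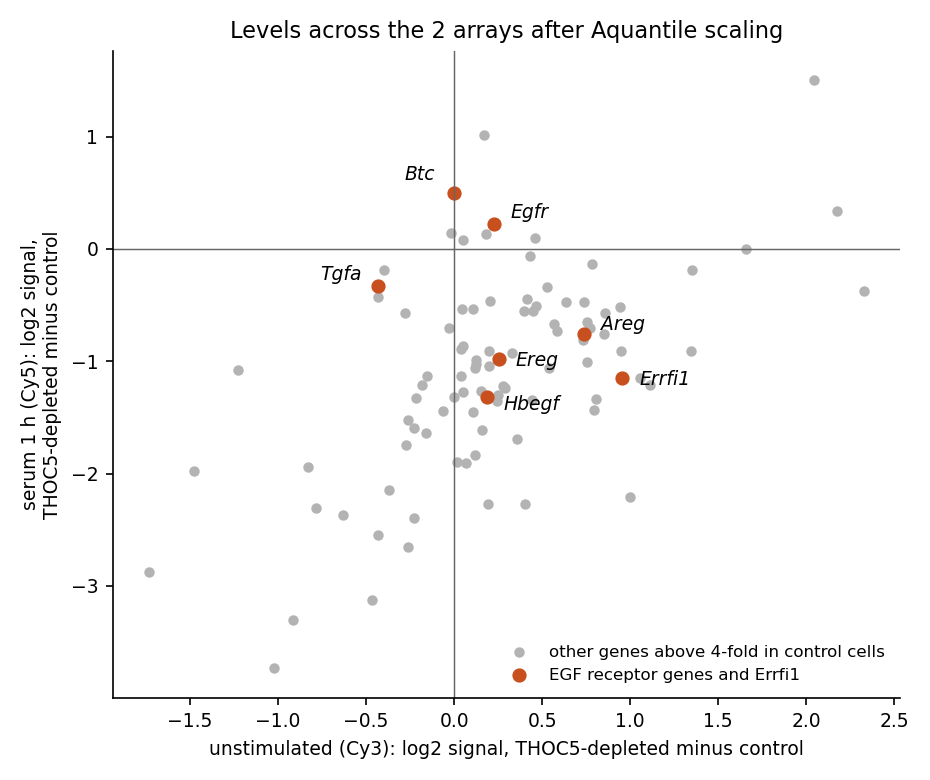
Log2 signal in THOC5-depleted minus control cells before serum (horizontal axis) and after serum (vertical axis), after scaling between the arrays, for the 7 genes (orange) and the other genes above 4 in control cells (grey). Areg and Errfi1 lie farther to the right than Ereg and Hbegf, and all 4 lie below zero on the vertical axis.

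Of the ligand genes, Ereg, Areg and Btc lie in one stretch of chromosome 5, with the Ereg probe 47.5 kb and the Btc probe 217 kb from that of Areg. Epgn, which encodes the ligand epigen, is 106 kb from Areg on the side of Ereg. Serum ratios along this stretch differed from gene to gene. Ereg and Areg had the high ratios given above, whereas Epgn had 1.14 and 1.20 (control and THOC5-depleted) at signals from 19.9 to 24.2. Mthfd2l, an enzyme of mitochondrial folate metabolism next to Epgn, had ratios of 1.06 and 1.10. At 248 kb from Areg, the chemokine gene Cxcl1 had ratios of 4.03 and 2.48, a fold reduction of 1.62. Cxcl2, another chemokine gene at 236 kb, had a ratio of 5.86 in control cells at dim signals of 15.3 and 89.6, and was not well above background in both channels of the THOC5-depleted array (8.16 and 24.2).

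Other genes of the pathway were taken as 5 lists of 52 genes in all, of which 46 were measured in control and 47 in THOC5-depleted cells. In control cells 1 of the 46 had a serum ratio of 2 or more, against 2.36% of all genes. It was Timp3, an inhibitor of the metalloproteases that shed EGFR ligands (2.75, and 1.44 in THOC5-depleted cells). In THOC5-depleted cells 1 of the 47 did, against 0.863% of all genes. It was Socs3, a feedback inhibitor of cytokine receptor signalling (2.34, and 1.64 in control cells). No list gene measured in both channels was 2-fold or more lower after serum, against 1.53% of all genes in control and 0.258% in THOC5-depleted cells. Egf, the gene of the founding ligand, had a signal of 37.1 before serum in control cells, and after serum it was not well above background (10.3). The median log2 serum ratio of the measured list genes was 0.07 and 0.04 on the control and THOC5-depleted arrays, against -0.02 and -0.01 over all measured genes. None of the 46 list genes measured on both arrays had a fold reduction of 2 or more, against 1.16% of all genes, and the nearest was Timp3 at 1.91.

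By list, Erbb2 was the only one of the other 3 ErbB receptors that was measured, with ratios of 0.80 and 0.92. Of the other 6 ErbB ligands, 3 were measured in control cells, and the neuregulin gene Nrg1 had ratios of 1.27 and 0.99. All 10 genes of ligand shedding were measured, among them Adam17, the main sheddase of several of these ligands (1.14 and 1.295), and Rhbdf2, which promotes its maturation (1.80 and 1.28). Of the 13 other negative regulators, 12 were measured, with log2 ratios from -0.52 to 0.85 in control cells. All 20 adaptors and kinases downstream were measured, with log2 ratios from -0.36 to 0.36 (control) and from -0.47 to 0.50 (THOC5-depleted).

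Levels differed by 2-fold or more between the arrays in few of these genes. Before serum 3 of the 48 list genes measured were 2-fold or more lower in THOC5-depleted cells, against 1.44% of all genes, and none was higher. Sos1, the exchange factor that activates RAS, was 3.81-fold lower before and 2.40-fold lower after serum, at signals of 114 and 97.9 in control cells against 26.6 and 36.3. Nrg2, another neuregulin gene, was 2.07-fold lower before and 2.28-fold lower after serum (signals of 56.2 and 50.1 in control cells against 24.5 and 19.8). Cblb, a ubiquitin ligase that acts on receptor tyrosine kinases, was 2.04-fold lower before serum and 1.48-fold lower after it (346 and 315 in control cells against 144 and 180.5), and its dimmer second probe had a log2 difference before serum of -0.42. The probes of Sos1 and Nrg2 were dim.

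**Figure D5:**
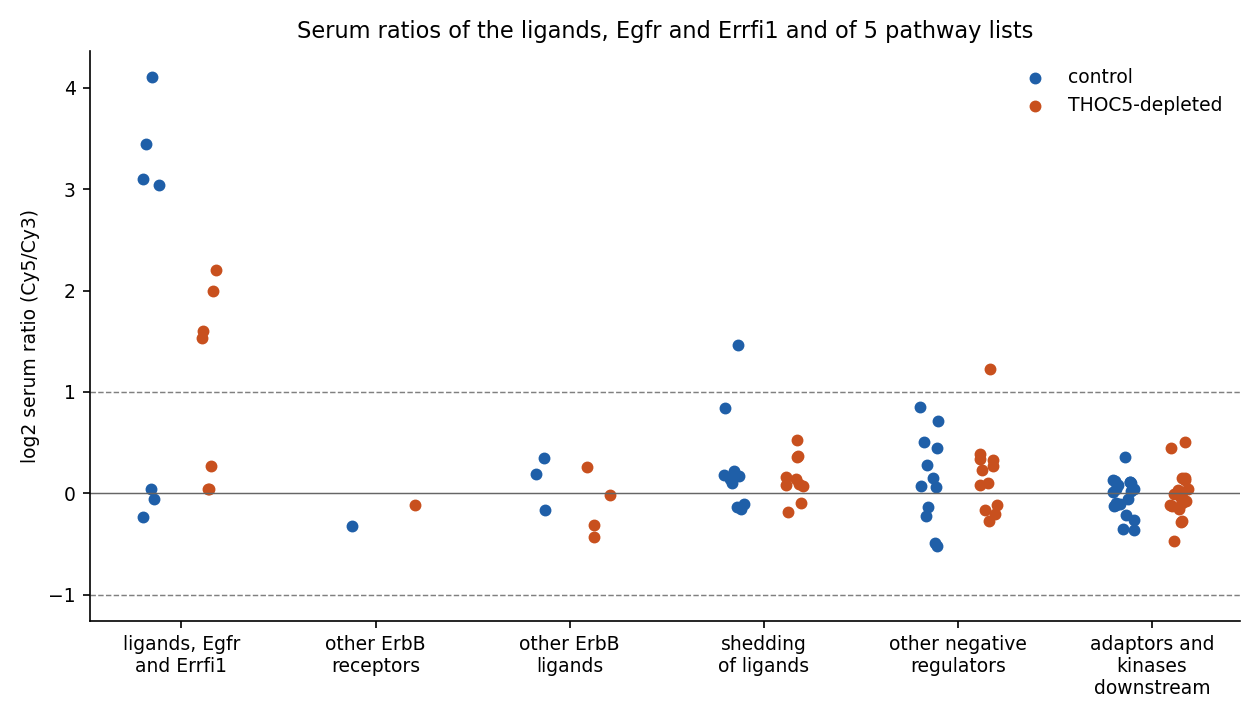
Log2 serum ratio in control and THOC5-depleted cells of the 7 genes and of the measured genes of 5 other lists of the pathway, 1 point a gene. Dashed lines mark 2-fold; outside the first group only Timp3 in control cells and Socs3 in THOC5-depleted cells lie beyond them.

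For each of the 4 serum-responsive genes, the genes with the most similar values were found among 17230 genes by the distance over 3 values, the log2 serum ratio in control cells, that in THOC5-depleted cells, and the log2 difference before serum. Nearest to Areg was Ier3, an early response gene, at a distance of 0.21 (ratios 7.90 and 3.18), and A530058O07Rik was also among the 3 nearest. Nearest to Ereg was Csrnp1 at 0.15 (10.4 and 4.69), followed by F3, which encodes tissue factor, and the pseudokinase gene Trib1. For Hbegf it was Id3, an inhibitor of basic helix-loop-helix factors, at 0.22 (7.98 and 3.37), followed by Cul9 and the transcription factor gene Npas4. For Errfi1 it was Smad7, an inhibitor of transforming growth factor beta signalling, at 0.34 (16.4 and 3.28), followed by Phlda1 and Ptgs2, which encodes cyclooxygenase 2.

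As a check of the labels, Thoc5 had signals of 4808 and 3047 in control cells and 546 and 455 in THOC5-depleted cells, and after scaling it was 7.08-fold lower before and 5.38-fold lower after serum. The array held 43020 spots other than control spots, of which 62.1% to 64.4% were well above background per channel. All 9 fibroblast markers were measured on both arrays. Before serum 2 of them were 2-fold or more lower in THOC5-depleted cells, against 1.44% of all genes. They were Pdgfra (log2 -1.28) and Col3a1 (-1.13), which read -0.39 and -0.75 after serum. Over the 9 the summed signal was 0.362% to 0.437% of that of all genes in control and 0.361% to 0.407% in THOC5-depleted cells. Such shares add signals of different probes and do not measure amounts of RNA or cells. Of 4 leukocyte markers, Itgam had signals of 6314 to 8700 and Cd3e of 196 to 276, while Ptprc and Cd68 were at 5.59 to 25.96 and well above background in both channels only in THOC5-depleted cells. Their share (0.00635% to 0.00792% in control, 0.00866% to 0.00995% in THOC5-depleted cells) was nearly all signal of the Itgam probe. Of 4 epithelial markers, Krt8 (51.6 to 109) and Krt18 (26.6 to 42.4) were measured on both arrays, Cdh1 on neither, and Epcam read 32.1 and 32.6 in control cells but was not well above background in THOC5-depleted cells (5.32 and 6.44). Their share was 0.000154% to 0.000175% in control and 0.000105% to 0.000139% in THOC5-depleted cells, and that of 3 endothelial markers, all measured, was 0.000977% to 0.00106% and 0.000983% to 0.000995%. The endothelial share was mostly signal of the Kdr probe, while Cdh5 read 42.7 and 50.7 in control cells against 21.7 and 21.1 (log2 -0.83 before and -1.12 after serum once scaled). The shares of the fibroblast and endothelial markers overlapped between conditions, and the part of the other differences in the results was not tested.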

How the data were processed

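RNA was measured on 2 dual-color Agilent arrays, 1 per condition. The authors deposited the scanner output (Agilent Feature Extraction 10.7.3.1, per the labels), with probe positions on mm9. The deposited processed signals are intensity values after background subtraction and linear and LOWESS dye normalization within an array. The deposited log ratio is the log10 of Cy5 over Cy3, and the deposited table for the whole series holds 0 negative values and equals the size of this log10 ratio, within 1e-06, in 85.1% (control) and 86.3% (THOC5-depleted) of its features. Spots marked as outliers were left out and spots of a probe averaged on the log2 scale. A gene was read by its brightest probe over the 4 channels, and counted as measured where over 50% of its spots were well above background in both channels. Of 35777 probes with a symbol, 26412 were named through their accession in RefSeq. Levels were compared between arrays after Aquantile (limma 3.58.1, R 4.3.3).

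With 1 array per condition there was no replicate and no test, and so few arrays limit the precision. Errors are the scanner's log ratio error, combined as the root of summed squares, or the SD between spots of a probe. Within an array, probes with 10 spots varied in their log2 ratio with a median SD of 0.027 (control) and 0.030 (THOC5-depleted). The genes, lists and tests were chosen with earlier results of these data known. The genes named are the 7 genes, the list genes past 2-fold (at most 4 a list), Thoc5, and the 3 genes nearest in value to each of the 4 responsive genes, of which 1 is not reported here. Other genes are named as markers or for their role or position, not by that rule. Alternatives were loess after normexp (offset 50), no dye normalization, the deposited series table with the scanner's signs, outlier spots kept, the mean over probes, a floor of 50, spike-in levelling and scaling of the spread, and for levels the 75th percentile and quantile scaling of all channels. Because the series table holds sizes without signs, that alternative could not show another direction. Python 3.11.15 with pandas 2.3.3, numpy 2.4.6 and matplotlib 3.10.9 was used. The steps from spot values to gene ratios were run on simulated log2 values with known changes. That run did not cover dye normalization or scaling between arrays, and its noise was smaller than the scanner's errors. The number of columns not mapped to a sample was 0. Immunoblots, RT-PCR and chromatin data were not analysed here.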

Additional observations from a re-analysis of the deposited data

Results flagged for a closer look

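The log2 serum ratio had opposite signs on the 2 arrays for 5 of the genes whose ratios are given, and none of these differences was tested, since there was 1 array per condition. For Btc it was -0.23 in control and 0.27 in THOC5-depleted cells, a difference of 0.50 with a scanner error of 0.39. For Tgfa it was -0.06 and 0.04, a difference of 0.10 with an error of 0.47. Sos1 had -0.22 and 0.45, a difference of 0.67 with an error of 0.35, and Cblb had -0.13 and 0.33, a difference of 0.46 with an error of 0.29. For the neuregulin gene Nrg1 it was 0.34 and -0.01, a difference of -0.36 with an error of 0.29.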

How the results depend on the processing

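Of the 7 genes, Areg, Ereg, Hbegf and Errfi1 had a serum ratio of 2 or more on both arrays under all 8 alternatives. Without dye normalization Btc joined them in THOC5-depleted cells, at 2.00. The ratio of the 4 genes in control cells ran from 7.52 for Areg to 36.0 for Errfi1, both extremes of the alternatives. Only loess after normexp and no dye normalization changed these control ratios. Spike-in levelling and scaling of the spread act on the THOC5-depleted array alone. The series table, outlier spots kept, the mean over probes and the floor of 50 left both ratios of the 4 genes unchanged. Each of these genes was read by 1 probe of 1 kept spot, with signals above 50. A fold reduction of 2 or more was found for 4 genes under 7 alternatives and for 1 gene (Errfi1) with the spread of log ratios scaled. Of these 7 alternatives, the ones that left both ratios unchanged could not alter this count. Without dye normalization the median log2 ratio of all genes moved to 0.83 (control) and 0.76 (THOC5-depleted), and 17 list genes of the pathway passed 2-fold in a serum ratio in place of 2. With the spike-in probes levelled, the median log2 ratio in THOC5-depleted cells was -0.26. At a limit of 1.5-fold, 4 of the 46 list genes measured on both arrays passed. For this count and that of 17 the share of all genes was not computed. Before serum, under 5 alternatives, the log2 difference of Errfi1 ran from 0.96 to 0.99 and that of Areg from 0.64 to 0.77. After serum, Hbegf ran from -1.36 to -1.28, Errfi1 from -1.19 to -1.15, Ereg from -1.03 to -0.96 and Areg from -0.76 to -0.75. With a floor of 50, the ratios of Btc were 1 on both arrays. No direction turned in a gene past 2-fold. No paired analysis was possible because each condition was 1 array, and for the same reason no replicate could be left out. The cause of these shifts was not tested.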
